A study of Mus musculus with 24 samples.

Results

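The comparison described here asks whether a tumour changed skeletal muscle differently in female and in male mice. For each gene the response of a sex was the log2 ratio of its level in tumour-bearing mice to that in vehicle mice, and the difference was the female response minus the male response. A negative difference therefore means a more positive response in males. The genes were the autosomal ones, on chromosomes 1 to 19, that reached 1 CPM, the usual count unit scaled to a common library size, in at least 6 of the 24 libraries. They numbered 14162 of 43346 genes in the table, and p-values were adjusted over the 14666 genes of all chromosomes that passed the same filter.

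The mice were of the C57BL6 strain, a common inbred laboratory strain. At 7 weeks of age they were injected under the skin with LLC1, a mouse lung adenocarcinoma cell line also called Lewis lung carcinoma, or with phosphate-buffered saline as vehicle. The gastrocnemius, a mixed calf muscle, was taken after 3 weeks of tumour growth. Poly(A) RNA was sequenced from 6 female LLC1, 6 female vehicle, 6 male LLC1 and 6 male vehicle mice. Every mouse shared the strain, the age and the muscle, and no genetic alteration is given for any group. LLC1 is a single tumour line grown outside its organ of origin, so a group models a subcutaneous tumour and not a lung tumour in place. The labels name 1 sequencing lane for each group, and lane and group cannot be told apart. The hour at which muscles were taken is not given in the sources used here.

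Muscle wasting with cancer, called cachexia, is known to combine faster protein breakdown with altered protein synthesis. In the textbook account, FoxO transcription factors switch on the muscle ubiquitin ligases atrogin-1 (Fbxo32) and MuRF1 (Trim63), which mark proteins for the proteasome, and they also drive autophagy. Glucocorticoids, interleukin 6 and activins feed into this programme, while androgens and insulin-like growth factor 1 favour muscle growth. Male and female muscle differ at rest through sex hormones, which act on genes of polyamine synthesis and fibre composition among others.

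Library totals ran from 26179971 to 47356612 counts, with overlapping ranges in the 4 groups. Muscle fibre markers summed to 133600 to 210300 CPM, and every library was muscle by that measure. Male LLC1 mice varied most from mouse to mouse: the median SD of log2 CPM was 0.221 in that group, against 0.178 in female LLC1, 0.168 in female vehicle and 0.160 in male vehicle mice. The male LLC1 group had the largest SD of the 4 groups for 46.1% of genes. In bulk muscle, fewer cells of a type and less RNA per cell cannot be told apart.

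The tumour moved the same genes in the same direction in both sexes for the most part, and by more in males. Across the 14162 genes, which are not independent replicates, the female and male responses had a Pearson r of 0.807. The median absolute log2 response was 0.148 in females and 0.238 in males. Over all 14162 genes, 9720 (68.6%) moved further in males and 3386 (23.9%) had responses of opposite sign in the sexes. Of 731 genes that moved over 2-fold in at least 1 sex, 631 (86.3%) moved further in males and 22 had opposite signs. Those 731 were picked by the larger of their 2 responses, so their shares do not describe all genes. In edgeR's quasi-likelihood test at an adjusted p under 0.05, 1633 genes (11.5%) were called for LLC1 in females, 807 higher (5.7%) and 826 lower (5.83%). In males 5886 genes (41.6%) were called, 3145 higher (22.2%) and 2741 lower (19.4%). Between the sexes, 1042 genes (7.36%) were called in vehicle mice, 3.53% higher and 3.83% lower in females, and 2609 (18.4%) in LLC1 mice, 7.56% higher and 10.9% lower. Those counts do not show which genes differ between the sexes, which is the question of the direct test.

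In the direct test of the difference no gene passed. edgeR called 0 of 14162 genes (0%), and the smallest adjusted p was 0.0584, for Cdkn1a. At an unadjusted p under 0.05 there were 1926 genes (13.6%): 744 with a difference above 0 (5.25%) and 1182 below 0 (8.35%). Other tools gave other counts on the same table. DESeq2 called 54 genes (0.381%), 25 above 0 and 29 below 0, limma-voom called 0, and limma-voom with sample weights called 320 (2.26%). The 20 residual degrees of freedom gave a median standard error of 0.168 on the log2 difference, against a median absolute response of 0.148 in females. The genes and lists below are therefore given with their sizes and errors, the unadjusted edgeR p where it was under 0.05, and the adjusted p of edgeR and DESeq2 where these matter. Counts of list members at an unadjusted p under 0.05 are read against 5.25% above 0 and 8.35% below 0. Counts of members called within a sex are read against 5.7% higher and 5.83% lower in females, and 22.2% and 19.4% in males.

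**Figure D1:**
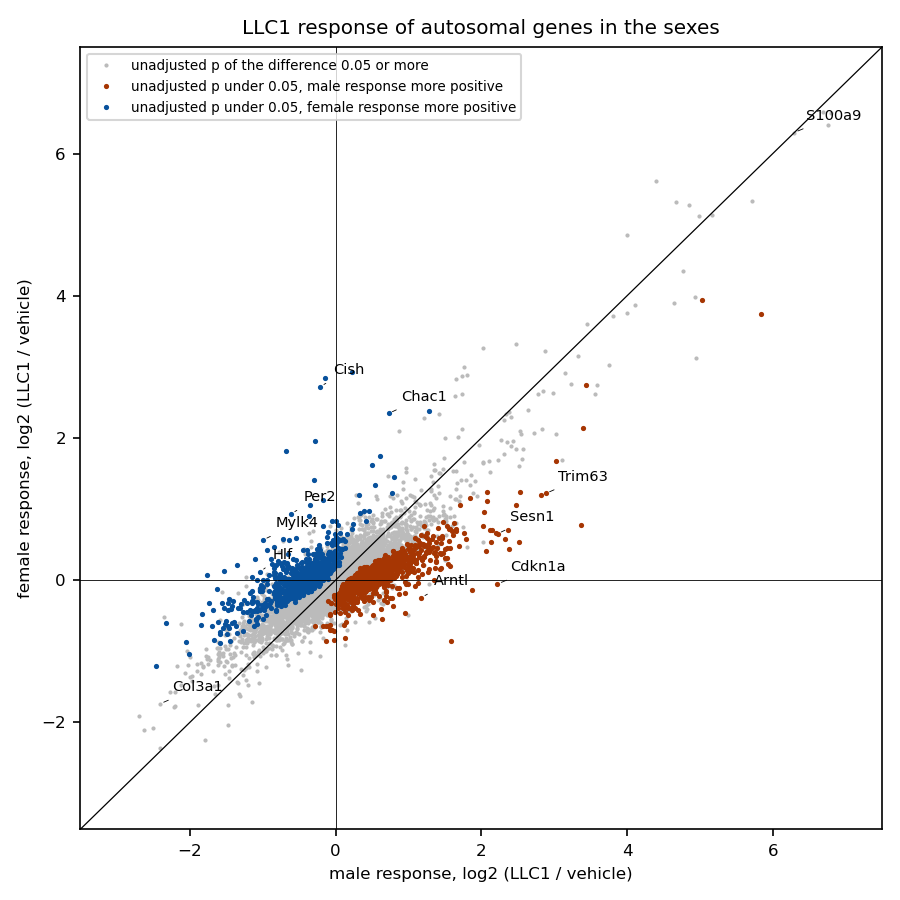
Each point is an autosomal gene, with the male log2 response to LLC1 on the x axis and the female log2 response on the y axis, and the diagonal marks equal responses. Coloured points have an unadjusted p under 0.05 for the difference (1182 below the diagonal, 744 above it). S100a9 lies on the diagonal, Cdkn1a, Trim63 and Sesn1 lie far below it, and Cish and Per2 above it.

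Growth arrest genes and FoxO targets had larger measured responses in males, and the gene with the smallest p of the whole test was among them. Sequences near the start sites of a pair of these genes are shown because both rose in males and carry the FoxO recognition element. Capitals mark GTAAACA on either strand, which reads as TGTTTAC on the strand printed. RefSeq windows (GRCm38.p6) run from 250 bases before to 50 bases after the annotated start, 5′ to 3′ on the gene's strand. Btg1 lies at chr10:96616751-96617050 (plus strand), with the element 204 bases before the start, and Sesn1 at chr10:41810324-41810623 (plus strand), with the element at position 23 of the transcribed part.
Btg1: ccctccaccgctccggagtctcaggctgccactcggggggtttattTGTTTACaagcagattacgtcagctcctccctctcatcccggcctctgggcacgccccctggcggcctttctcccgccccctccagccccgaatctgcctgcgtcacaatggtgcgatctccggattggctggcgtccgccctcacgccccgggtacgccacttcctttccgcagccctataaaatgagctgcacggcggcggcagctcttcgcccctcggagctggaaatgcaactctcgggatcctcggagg
Sesn1: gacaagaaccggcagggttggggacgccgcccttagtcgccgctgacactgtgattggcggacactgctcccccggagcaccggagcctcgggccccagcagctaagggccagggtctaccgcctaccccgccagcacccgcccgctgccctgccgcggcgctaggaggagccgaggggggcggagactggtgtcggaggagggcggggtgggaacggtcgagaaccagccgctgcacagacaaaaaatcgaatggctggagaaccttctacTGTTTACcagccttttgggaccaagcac
GTAAACA was found in 2 of 20 windows of the growth arrest list and in 316 of 12272 windows of all tested genes that had one (2.57%). Among genes at an unadjusted p under 0.05 it was in 29 of 1114 windows below 0 (2.6%) and 17 of 683 above 0 (2.49%). It is in neither RefSeq window of Cdkn1a. These are matches of letters in short windows and describe no binding.

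Cdkn1a encodes p21, an inhibitor of cyclin-dependent kinases that holds cells out of the cell cycle. Its level was 28.4 to 48.6 CPM (median 38.7) in female vehicle and 31.0 to 44.0 CPM (median 37.4) in female LLC1 mice. In males it was 12.6 to 29.9 CPM (median 14.5) with vehicle and 36.5 to 128 CPM (median 74.1) with LLC1. The female groups overlapped throughout, while every male LLC1 mouse lay above every male vehicle mouse. The difference in log2 response was -2.28 ± 0.38 (SE), with a female response of -0.05 and a male response of 2.22. Its adjusted p was 0.0584 in edgeR and 5.39e-06 in DESeq2. The sexes also stood apart at baseline, where females were higher by 1.19 (edgeR adjusted p = 0.0088), and stood the other way with LLC1, at -1.09 (edgeR adjusted p = 0.00817). Leaving out 1 library at a time kept the difference between -2.53 and -2.08.

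Sesn1 encodes sestrin 1, a stress-induced protein that restrains mTORC1, the kinase complex that drives protein synthesis. It was measured at 36.3 to 57.2 CPM in female vehicle, 58.4 to 97.5 in female LLC1, 23.3 to 31.8 in male vehicle and 44.5 to 254 in male LLC1 mice. LLC1 and vehicle mice did not overlap in either sex, and the male LLC1 mice covered the widest range. The log2 response was 0.65 in females and 2.22 in males, a difference of -1.57 ± 0.44 (edgeR unadjusted p = 0.00156, adjusted p = 0.222; DESeq2 adjusted p = 0.0423). Btg1, an antiproliferative factor, was 9.09 to 13.3 and 13.2 to 15.1 CPM in female vehicle and LLC1 mice, and 9.04 to 14.3 and 15.9 to 23.8 CPM in the male groups. Its difference was -0.74 ± 0.16 (DESeq2 adjusted p = 0.00801). Gadd45a, another growth arrest gene, responded by 0.29 in females and 1.30 in males, a difference of -1.01 ± 0.41 (-0.58 without male LLC1 mouse 1-5). Foxo3 responded by 0.49 and 1.04, and the insulin receptor substrate Irs2 by 0.24 and 0.85. Foxo1 had a difference of -0.72 ± 0.53 (edgeR unadjusted p = 0.192), -0.48 without female vehicle mouse 1-4 and -0.43 in limma-voom.

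Of 19 tested genes in the list of FoxO factors and growth arrest, 7 had an unadjusted p under 0.05 below 0 and 1 above 0. The exception was Sesn3, at 0.51 ± 0.24, which responded by -0.53 in males. The median difference of the list was -0.39, against -0.01 over all genes, and it was -0.23 without male vehicle mouse 1-3. Without male LLC1 mouse 1-5, 5 members in all had an unadjusted p under 0.05. Within each sex, at an adjusted p under 0.05, LLC1 raised 1 member of the 19 and lowered 1 in females, near the 5.7% and 5.83% of all genes. In males it raised 10 and lowered 2, against 22.2% and 19.4% of all genes. Genes known to respond to glucocorticoids share several members with that list, Cdkn1a, Sesn1 and Foxo3 among them. Their median difference was -0.53 (female 0.54, male 1.06), with 4 of 23 at an unadjusted p under 0.05 below 0 and 0 above. Over the single-library omissions the median stayed between -0.59 and -0.43. The number at an unadjusted p under 0.05, in either direction, ran from 2 (without female vehicle mouse 1-4) to 11.

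**Figure D2:**
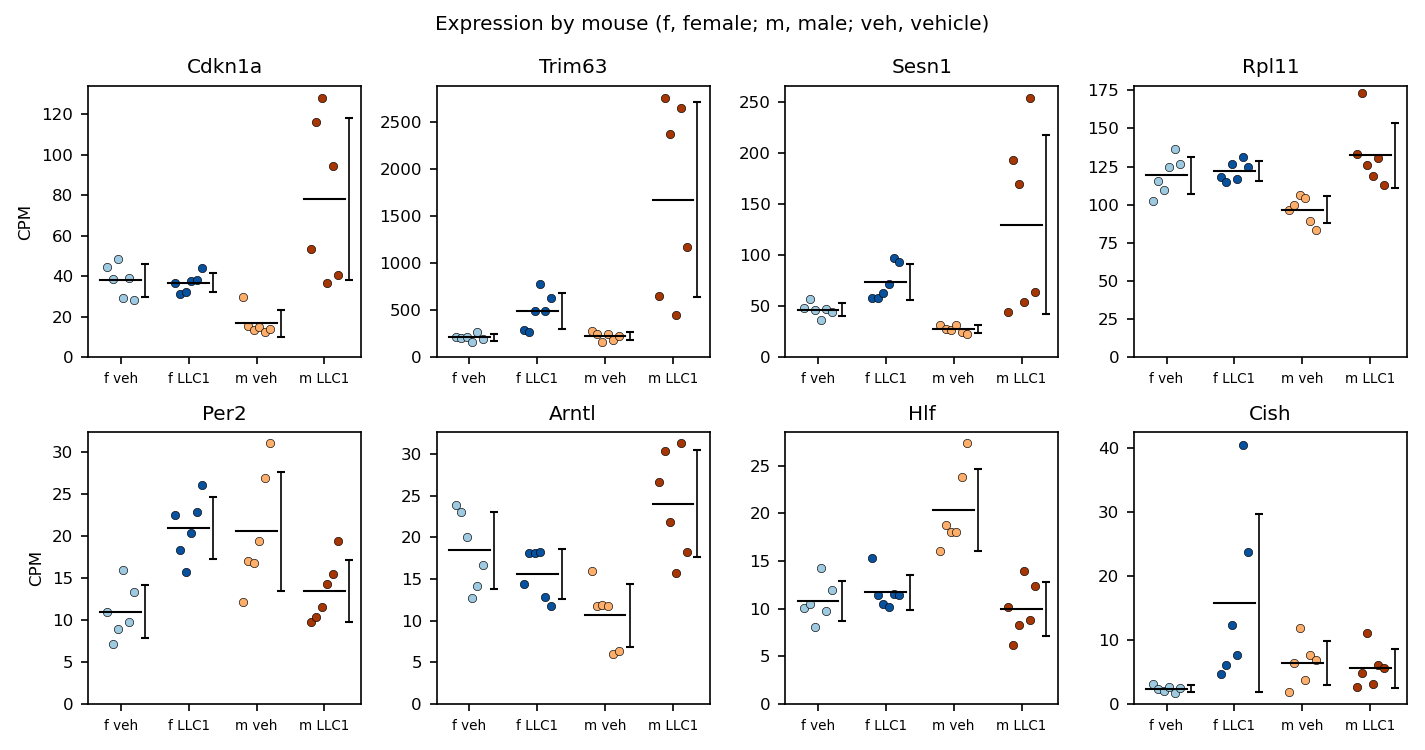
CPM of 8 genes in each mouse, with points for mice, horizontal bars for group means and error bars for 1 SD (6 mice a group). Cdkn1a, Trim63 and Sesn1 are highest in male LLC1 mice, and Rpl11 is lowest in male vehicle mice. Per2 rises in females and falls in males, Arntl rises in males, and Cish is highest in female LLC1 mice.

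The muscle ubiquitin ligases rose in both sexes, with larger measured responses in males. Trim63 ran from 167 to 269 CPM in female vehicle, 274 to 778 in female LLC1, 166 to 280.4 in male vehicle and 454 to 2749 in male LLC1 mice. The medians were 211, 492, 239 and 1770.2 CPM in that order, and neither pair of groups overlapped. The log2 response was 1.22 in females (edgeR adjusted p = 0.0234) and 2.89 in males (8.36e-06), a difference of -1.67 ± 0.48 (edgeR adjusted p = 0.225, DESeq2 adjusted p = 0.0499). Fbxo32 was 139.8 to 312 CPM in female vehicle, 469.7 to 1380.5 in female LLC1, 296 to 514 in male vehicle and 905 to 3961 in male LLC1 mice. It responded by 1.71 and 2.56, and its difference of -0.85 ± 0.44 had an unadjusted edgeR p of 0.0653. In male LLC1 mice both ligases spread over a wide range, with Trim63 at 454 and 649.8 CPM in mice 2-2 and 1-4 and at 2367 to 2749 CPM in mice 2-1, 2-4 and 1-5.

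Of 25 tested atrogenes and ubiquitin ligases, 6 had an unadjusted p under 0.05 below 0 and 1 above 0, with a median difference of -0.21. The exception was the ligase Trim32, at 0.29 ± 0.13. The 7 such atrogenes and ubiquitin ligases became 4 without male LLC1 mouse 1-5 or 2-1, 11 without 1-4 and 12 without 2-2.

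Most proteasome subunits rose in males. The proteasome is the barrel-shaped protease that degrades ubiquitin-tagged proteins. All 38 listed subunits were tested, 36 had a difference below 0, and 22 had an unadjusted p under 0.05 below 0 and 0 above. Their median response was 0.14 in females and 0.61 in males, a median difference of -0.42. At an adjusted p under 0.05 within each sex, 3 subunits rose in females, against 5.7% of all genes. In males 33 rose and 1 fell, against 22.2% and 19.4% of all genes. The sexes had nearly the same level at baseline, with a median female-minus-male value of 0.03 in vehicle mice and -0.48 in LLC1 mice.

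Psmc4, an ATPase subunit of the regulatory cap, was 63.8 to 76.6 CPM in female vehicle, 69.1 to 87.1 in female LLC1, 68.2 to 80.1 in male vehicle and 78.6 to 299 in male LLC1 mice. The highest value came from male LLC1 mouse 1-5, and the next was 153 CPM. The difference was -0.84 ± 0.29 (edgeR unadjusted p = 0.00849) and -0.50 without that mouse. Subunits of the core particle had like values: Psmb4 had a difference of -0.73 ± 0.24, Psmb3 of -0.75 ± 0.26 and Psma1 of -0.69 ± 0.24, and without the same mouse -0.44, -0.42 and -0.44. Psmd8, a lid subunit, rose in both sexes (0.65 and 0.99; difference -0.34, and -0.14 without that mouse) and was lower in females at baseline by 0.65. The mean level of the 38 subunits, relative to vehicle mice, was 0.08 to 0.28 in female LLC1 mice and 0.07 to 1.23 in male LLC1 mice, again highest in mouse 1-5. Without that mouse the median difference of the proteasome subunits was -0.24, and 14 subunits had an unadjusted p under 0.05.

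**Figure D3:**
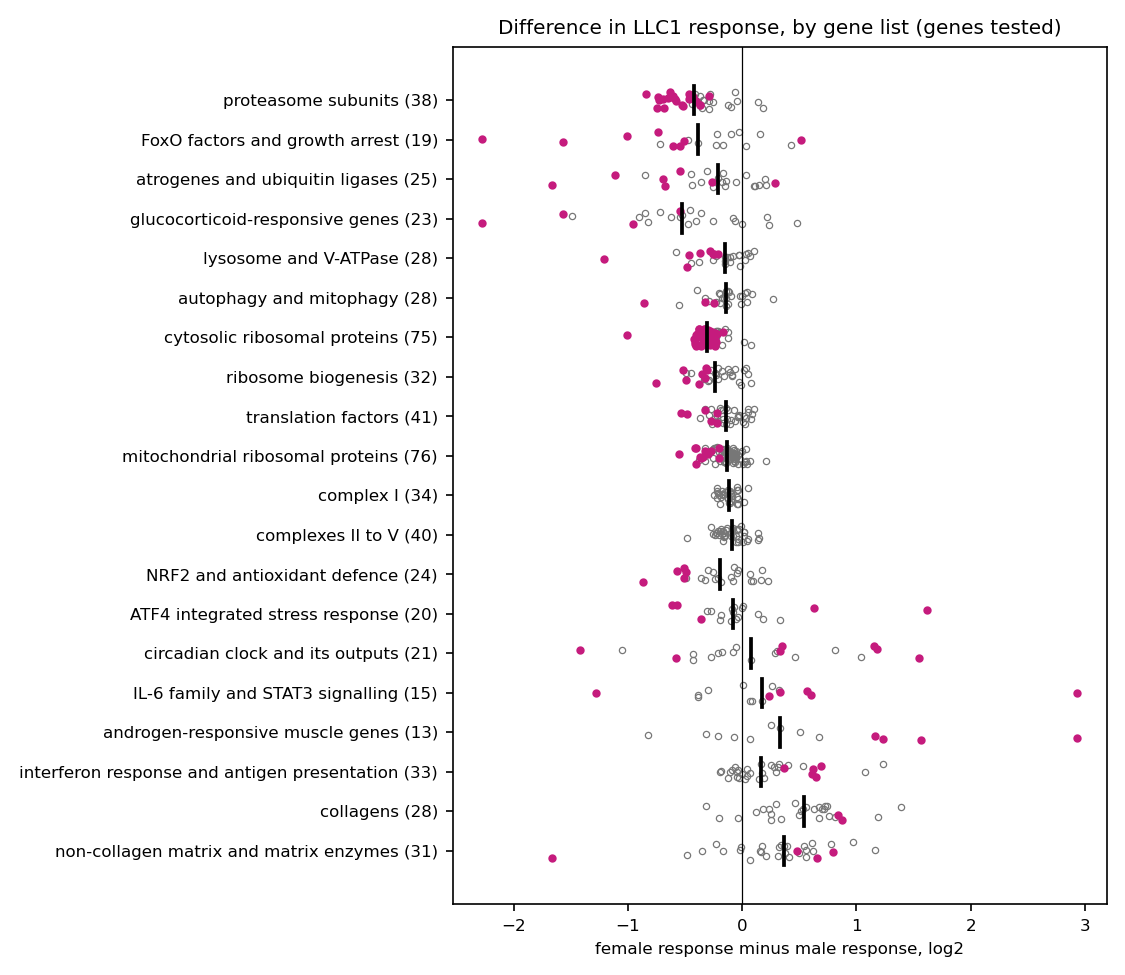
Each point is a tested gene of the list named on the left (number tested in parentheses), placed by its female-minus-male difference in log2 response, with black bars at list medians. Filled points have an unadjusted p under 0.05. The proteasome and ribosomal lists lie almost wholly below 0, the collagens lie mostly above it, and the clock list is split to both sides.

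Lysosomal and autophagy genes leaned the same way with smaller sizes. The V-ATPase acidifies lysosomes, and its subunits supplied 6 of the 8 lysosomal genes with an unadjusted p under 0.05, which were all below 0 (8 of 28 tested, median difference -0.15, and 5 lysosome and V-ATPase genes without male LLC1 mouse 1-5). Atp6v1h was 15.4 to 19.03 CPM in female vehicle, 18.3 to 21.2 in female LLC1, 14.9 to 17.5 in male vehicle and 16.7 to 96.5 in male LLC1 mice. Male LLC1 mice 2-4, 2-1 and 1-5 held the high values (48.9 to 96.5 CPM), and the female groups overlapped. The difference was -1.21 ± 0.41 (edgeR unadjusted p = 0.00735). Of 28 autophagy and mitophagy genes, 3 had an unadjusted p under 0.05 below 0 and 0 above, near the 8.35% of all genes. Gabarapl1, a homologue of the autophagosome protein LC3, responded by 0.25 in females and 1.10 in males, a difference of -0.86 ± 0.29.

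Genes for the cytosolic ribosome differed in a separate way, because the sexes stood apart before the tumour. Of 79 listed ribosomal protein genes 75 were tested, of which 73 had a difference below 0, and 58 had an unadjusted p under 0.05 below 0 and 0 above. The median response was 0.03 in females and 0.34 in males, a median difference of -0.31. In vehicle mice the median female-minus-male value was 0.33, and in LLC1 mice it was 0.03. At an adjusted p under 0.05, 67 of the 75 genes rose in males, against 22.2% of all genes. In females 0 changed, against 11.5% of all genes in either direction. Across the single-library omissions the median difference of the cytosolic ribosomal proteins stayed between -0.35 and -0.24. Their number at an unadjusted p under 0.05 was less steady: 35 without female vehicle mouse 2-2, 38 without female vehicle mouse 2-1, 37 without male LLC1 mouse 1-5, 36 with upper-quartile scaling and 13 with the full label number as a block.

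Rpl11, a protein of the large subunit, was 102 to 136 CPM in female vehicle, 115 to 131 in female LLC1, 83.3 to 106 in male vehicle and 113 to 173 in male LLC1 mice. Male vehicle mice were the low group, and the other groups overlapped. The difference was -0.42 ± 0.13 (edgeR unadjusted p = 0.00264, adjusted p = 0.226; DESeq2 adjusted p = 0.0912). Rps26 and Rps10 of the small subunit had a female excess at baseline of 0.42 and 0.44 (edgeR adjusted p = 0.00334 and 0.00179), and 0.02 and 0.08 with LLC1. Rps27, also of the small subunit, had a difference of -0.38 ± 0.15. Ribosomal protein genes have many processed pseudogenes, and reads shared with those copies make single genes uncertain. Averaged over the 75 genes, male vehicle mice lay between -0.34 and -0.03 relative to all vehicle mice, female vehicle mice between -0.06 and 0.35, and LLC1 mice between 0.04 and 0.41.

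**Figure D4:**
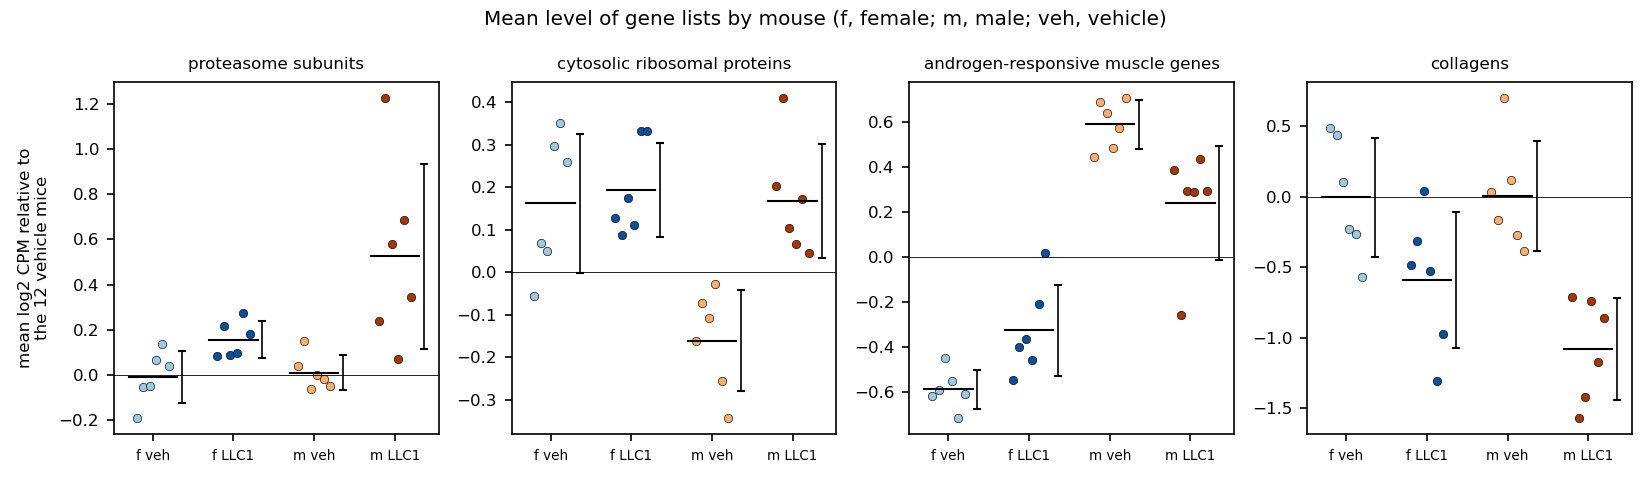
Mean log2 CPM of 4 gene lists in each mouse, relative to the mean of the vehicle mice, with points for mice, bars for group means and error bars for 1 SD (6 mice a group). Male vehicle mice are the low group for ribosomal proteins, male LLC1 mice are the high and most spread group for proteasome subunits, and the sexes lie apart at baseline and nearer with LLC1 for androgen-responsive genes.

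Ribosome biogenesis genes and translation factors also leaned below 0, with median baseline values of -0.07 and 0.01. Of 32 ribosome biogenesis genes, 8 had an unadjusted p under 0.05 below 0 and 0 above, with a median difference of -0.24. Gnl3, the nucleolar protein nucleostemin, was the member with the largest of these differences, -0.76 ± 0.25 (responses of 0.42 and 1.18). Of 41 translation factors 6 were below 0 and 0 above, Eif4a1, the helicase of cap-dependent initiation, among them at -0.49 ± 0.19. Without male LLC1 mouse 1-5 the medians of these lists were -0.14 for ribosome biogenesis and -0.08 for translation factors. Over the omissions the count for ribosome biogenesis ran from 4 (without male LLC1 mouse 1-5) to 19 (without 2-2). For translation factors it ran from 4 (without female LLC1 mouse 1-4) to 13 (without male LLC1 mouse 1-4 or 2-2). Mitochondrial ribosomal proteins had a median response of -0.16 in females and -0.01 in males, with 12 of 76 at an unadjusted p under 0.05 below 0 and 0 above. Their median female-minus-male value was 0.09 in vehicle and -0.03 in LLC1 mice. The count of mitochondrial ribosomal proteins was 6 without male LLC1 mouse 1-5 and 25 without female LLC1 mouse 2-5. Mrps28 responded by -0.34 in females and 0.06 in males, and Mrpl41 by 0.03 and 0.58.

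Restraint of mTORC1 and stress signalling went both ways. Eif4ebp1, which encodes the translation repressor 4E-BP1, was 25.6 to 31.8 CPM in female vehicle, 43.8 to 73.1 in female LLC1, 28.1 to 36.2 in male vehicle and 52.3 to 275 in male LLC1 mice. It rose in both sexes (1.12 and 2.08), with a difference of -0.96 ± 0.38 (edgeR unadjusted p = 0.0175), which was -0.63 without male LLC1 mouse 1-5. Of 23 genes of mTORC1 restraint and amino acid sensing, 4 were below 0 and 4 above at an unadjusted p under 0.05. In all 4 such genes of mTORC1 restraint and amino acid sensing were left without male LLC1 mouse 2-4, male vehicle mouse 2-4 or female vehicle mouse 2-2. Ppp1r15a, also called Gadd34, directs a phosphatase to the initiation factor eIF2 in the integrated stress response. It was 17.5 to 24.5 CPM in female vehicle, 29.4 to 39.6 in female LLC1, 18.5 to 27.7 in male vehicle and 40.7 to 119 in male LLC1 mice, with a difference of -1.09 ± 0.28 (DESeq2 adjusted p = 0.0305). The transcription factor Atf4 responded by 0.17 in females and 0.79 in males (-0.62 ± 0.19). Chac1, a known ATF4 target that degrades glutathione, went the other way at 1.62 ± 0.54 (1.06 in limma-voom with sample weights), and it was lower in females at baseline by 1.81. Of 20 listed ATF4 pathway genes, Ppp1r15a not among them, 3 were below 0 and 2 above.

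NRF2 is the main transcription factor of antioxidant defence. Of 24 genes of that list, 5 had an unadjusted p under 0.05 below 0 and 0 above, with a median difference of -0.20 (-0.13 without male LLC1 mouse 2-1). The count of NRF2 and antioxidant defence genes was 1 without female vehicle mouse 2-2, male LLC1 mouse 1-5 or male vehicle mouse 1-4. Srxn1, sulfiredoxin, responded by 0.44 in females and 1.31 in males, and Gsr, glutathione reductase, by 0.56 and 1.13 (difference -0.57, and -0.34 without male LLC1 mouse 1-5). Mt2, a metallothionein that binds zinc, rose in both sexes (2.39 and 2.64) with a difference of -0.26 ± 0.80.

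Among clock genes, responses of opposite direction were seen, and Per2 rose in females and fell in males. The circadian clock is a loop in which ARNTL (BMAL1) and CLOCK activate the Per and Cry repressors through E-box elements, while ROR and REV-ERB factors act on Arntl. The windows of Cry1 and Arntl are shown because they hold elements of both arms of the loop and the genes had differences of opposite sign. Capitals mark the canonical E-box CACGTG, the ROR element core AGGTCA and the FoxO element GTAAACA, both strands searched. Cry1 lies at chr10:85185005-85185304 (minus strand), with the E-box 60 and the FoxO element 95 bases before the start. Arntl lies at chr7:113207261-113207560 (plus strand), with the ROR element core at position 32, in 1 of its 2 RefSeq windows.
Cry1: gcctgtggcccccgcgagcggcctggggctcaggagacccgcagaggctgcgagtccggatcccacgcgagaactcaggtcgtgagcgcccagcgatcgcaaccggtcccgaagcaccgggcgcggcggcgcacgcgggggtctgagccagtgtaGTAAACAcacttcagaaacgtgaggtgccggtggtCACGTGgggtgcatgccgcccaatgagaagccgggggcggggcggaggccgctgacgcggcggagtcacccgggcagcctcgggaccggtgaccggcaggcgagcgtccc
Arntl: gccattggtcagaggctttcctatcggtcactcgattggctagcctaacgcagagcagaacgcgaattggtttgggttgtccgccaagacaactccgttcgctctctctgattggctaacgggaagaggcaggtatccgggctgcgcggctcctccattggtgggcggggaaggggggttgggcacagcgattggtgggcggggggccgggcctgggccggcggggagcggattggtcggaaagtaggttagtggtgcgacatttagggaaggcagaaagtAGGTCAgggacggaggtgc
CACGTG was found in 6 of 25 windows of clock genes and 9.67% of windows of all tested genes, and AGGTCA in 5 of 25 and 12.8%. CACGTG was also in 5 of 20 growth arrest, 3 of 35 proteasome and 8 of 65 cytosolic ribosomal windows. AGGTCA was in 2 of 20, 9 of 35 and 8 of 65 of those windows. Per2 has no window in the RefSeq table.

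Per2 was 7.09 to 15.9 CPM (median 10.4) in female vehicle and 15.7 to 26.0 CPM (median 21.4) in female LLC1 mice. In males it was 12.1 to 31.1 CPM (median 18.2) with vehicle and 9.68 to 19.4 CPM (median 12.9) with LLC1. It rose by 0.94 in females (edgeR adjusted p = 0.00751) and fell by 0.61 in males (0.0262). The difference was 1.55 ± 0.30 (edgeR adjusted p = 0.132, DESeq2 adjusted p = 0.00149). Every female LLC1 mouse lay above the female vehicle mean and every male LLC1 mouse below the male one, although vehicle and LLC1 ranges overlapped in both sexes. Arntl was 12.7 to 23.9 and 11.8 to 18.3 CPM in female vehicle and LLC1 mice. In the male groups it was 5.95 to 16.0 and 15.8 to 31.3 CPM. It rose by 1.18 in males (edgeR adjusted p = 0.000426) and its female response was -0.24, a difference of -1.42 ± 0.31 (DESeq2 adjusted p = 0.00801). Its partner Clock had a difference of -0.58 ± 0.18.

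Hlf, a PAR-bZIP factor driven by the clock, was 8.10 to 14.3 CPM in female vehicle, 10.1 to 15.4 in female LLC1, 16.0 to 27.4 in male vehicle and 6.15 to 13.9 in male LLC1 mice. The female groups overlapped, and every male LLC1 mouse lay below every male vehicle mouse. It fell by 1.03 in males and its female response was 0.12, a difference of 1.15 ± 0.24 (DESeq2 adjusted p = 0.00714). Per3 responded by 0.29 in females and -0.89 in males (1.18 ± 0.35), and Cry1 by 0.46 and 0.13 (0.33 ± 0.14). Dbp, another output factor, which shares reads with its neighbour Sphk2, had a wide error at 1.04 ± 0.68. Its difference was 0.78 without female LLC1 mouse 2-5 and 1.74 without male LLC1 mouse 2-2. Of 21 clock genes and outputs, 5 had an unadjusted p under 0.05 above 0 and 2 below. Over the omissions this count in all ran from 5 (without male vehicle mouse 2-5) to 11 (without female vehicle mouse 2-3). The list median of 0.08 was 0.02 without male vehicle mouse 2-5. Responses of opposite sign in the sexes were seen in 10 of the 21 genes (47.6%), against 23.9% of all genes.

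The clock genes also moved with the first number in a mouse's label, whose meaning is not given. In male vehicle mice Arntl was 11.8 to 16.0 CPM in the 4 mice with a 1 and 5.95 to 6.38 CPM in the 2 mice with a 2. In female vehicle mice it was 20.1 to 23.9 and 12.7 to 16.7 CPM, 3 mice each. Computed from mean log2 CPM within each number, the Arntl difference was -1.62 among mice with a 1 and -1.72 among mice with a 2. Per2 gave 1.88 and 1.67, Hlf 1.64 and 1.14, and Cdkn1a -2.54 and -2.05. Other values were not alike in the numbers. Trim63 gave -2.12 and -1.21, with female responses of 0.41 and 1.51. List means gave -0.61 and -0.21 for FoxO factors and growth arrest, and -0.90 and -0.10 for glucocorticoid-responsive genes. They gave 0.02 and 0.41 for the IL-6 family, and 0.42 and -1.12 for neutrophil markers. Mice with a 1 included only 2 LLC1 mice of each sex. With the first number as a block, edgeR called 6 genes: Per2 (adjusted p = 0.00521), Arntl (0.0159), Cdkn1a (0.0199), Ets2 (0.0375), Hlf (0.0402) and Fam76a. The part of collection time in these values was not tested.

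Cytokine signalling genes included the largest difference above 0 among the genes named. Cish encodes a STAT-induced inhibitor of cytokine and growth hormone signalling. It was 1.75 to 3.14 CPM in female vehicle and 4.67 to 40.5 in female LLC1 mice, which did not overlap, and 1.93 to 11.8 and 2.64 to 11.1 CPM in male vehicle and LLC1 mice, which did. It rose by 2.72 in females (edgeR adjusted p = 0.00106) and its male response was -0.21. The difference was 2.93 ± 0.67 (edgeR adjusted p = 0.143, DESeq2 adjusted p = 0.0121), and limma-voom with sample weights gave 1.55 (adjusted p = 0.185). It was 2.38 when the highest female, mouse 2-4, was left out. Il6ra, the interleukin 6 receptor, went the other way, rising by 1.25 in females and 2.53 in males (-1.28 ± 0.52). Lifr, a receptor of the same family, fell by 0.33 in males with a female response of 0.00. Socs3, an inhibitor of interleukin 6 signalling, rose in both sexes (1.54 and 1.37). Of 15 tested genes of the family, 5 were above 0 at an unadjusted p under 0.05 and 1 was below, and the list median of 0.18 fell to 0.01 without female LLC1 mouse 2-3.

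Genes with known androgen dependence in muscle were far apart at baseline and closer with LLC1. The median female-minus-male value of the 13 tested genes was -1.34 in vehicle and -0.26 in LLC1 mice. The median difference in response was 0.33 (female 0.18, male -0.21). It was 0.24 without male LLC1 mouse 1-5 and 0.50 without male LLC1 mouse 2-2. Mylk4, a muscle kinase gene, was 490.3 to 1273 CPM in female vehicle, 799 to 2055 in female LLC1, 1434 to 3551 in male vehicle and 360.1 to 1753 in male LLC1 mice. It fell by 0.99 in males (edgeR adjusted p = 0.0162) and its female response was 0.57, a difference of 1.56 ± 0.45 (edgeR unadjusted p = 0.00198, DESeq2 adjusted p = 0.0621). Amd1, an enzyme of polyamine synthesis, was 104 to 169.6 CPM over all female mice, 1131 to 1622 in male vehicle and 157 to 990.1 in male LLC1 mice. Its difference was 1.17 ± 0.38, and reads cannot be told apart from its near-identical copy Amd2. Of the 13 genes 4 were above 0 at an unadjusted p under 0.05 (Mylk4, Amd1, Amd2 and Cish, which is in both lists) and 0 below. Igf1, insulin-like growth factor 1, had a difference of 0.50 ± 0.33 (0.31 without male vehicle mouse 1-3).

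**Figure D5:**
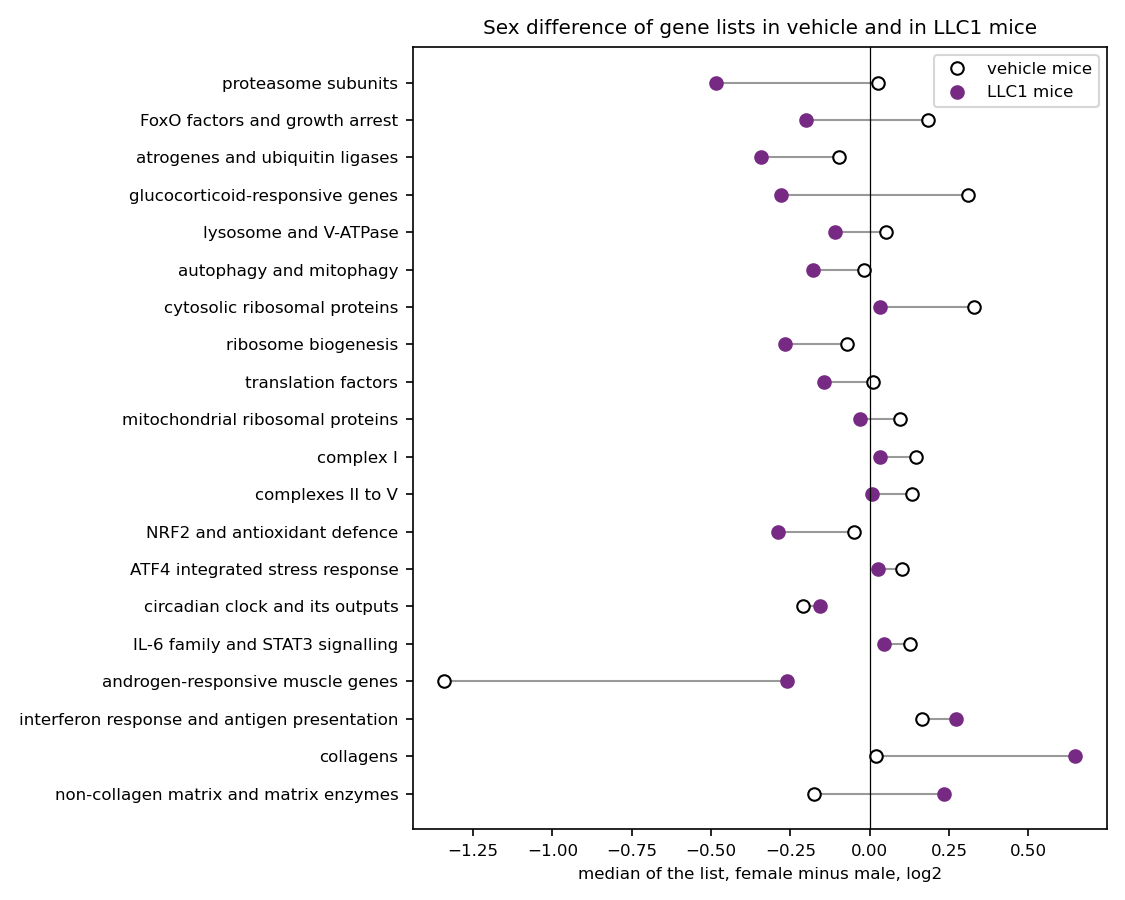
Median female-minus-male log2 value of each gene list in vehicle mice (open circles) and LLC1 mice (filled circles). The sexes stand near 0 at baseline and apart with LLC1 for proteasome subunits and collagens, and apart at baseline and near 0 with LLC1 for ribosomal proteins and, in part, androgen-responsive genes.

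At an adjusted p under 0.05 many collagen genes fell, 11 of 28 in females and 23 of 28 in males, and their measured responses were more negative in males. Over all genes 5.83% fell in females and 19.4% in males. Of 28 collagen-list genes, 25 had a difference above 0, with 2 at an unadjusted p under 0.05 (Col6a6 and Col8a1) and 0 below. The median response was -0.46 in females and -1.07 in males, a median difference of 0.54 that became 0.34 without male vehicle mouse 1-3. At the same adjusted p under 0.05, 1 collagen-list gene rose in each sex. Col3a1, a fibrillar collagen chain, was 301 to 872 CPM in female vehicle, 84.5 to 241 in female LLC1, 373 to 1058 in male vehicle and 34.9 to 212 in male LLC1 mice. It fell in both sexes (-1.74 and -2.41), and its difference was 0.67 ± 0.54 (edgeR unadjusted p = 0.225). Col1a1, another fibrillar chain, gave 0.70 ± 0.63. Without male vehicle mouse 1-3 these differences were 0.39 and 0.32. Col6a6 fell by 0.67 in females and by 1.54 in males (0.87 ± 0.30). Markers of tendon, a collagen-rich tissue, summed to 73.6 to 862 CPM in female LLC1 and 159 to 269.7 CPM in male LLC1 mice. These markers had a median difference of 1.10 over 8 genes, with 0 at an unadjusted p under 0.05. The tendon cell median was 0.63 without female LLC1 mouse 2-1, and the list mean gave 1.23 and 0.08 among mice with a first label number of 1 and 2. Their part in the collagen values was not tested.

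Of 31 non-collagen matrix genes 3 were above 0 and 1 below at an unadjusted p under 0.05, with a median difference of 0.37. At an adjusted p under 0.05, 4 fell and 2 rose in females, against 5.83% and 5.7% of all genes. In males 17 fell and 3 rose, against 19.4% and 22.2% of all genes. Podn, a small leucine-rich proteoglycan outside that list, was 12.6 to 21.8 CPM in female vehicle, 12.2 to 16.8 in female LLC1, 14.4 to 25.7 in male vehicle and 6.61 to 12.7 in male LLC1 mice. It fell by 1.04 in males and its female response was -0.15, a difference of 0.89 ± 0.21 (DESeq2 adjusted p = 0.0218). Timp3, a metalloproteinase inhibitor, had a difference of 0.65 ± 0.17 (DESeq2 adjusted p = 0.0423). Its locus lies within Syn3, also called by DESeq2, and the strand of counting is not given. Cxcl12, a chemokine, was 68.7 to 89.0 CPM in female vehicle, 77.2 to 134 in female LLC1, 65.3 to 106 in male vehicle and 57.1 to 73.1 in male LLC1 mice, a difference of 0.68 ± 0.17 (DESeq2 adjusted p = 0.0423).

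Stab2 and some listed endothelial markers had more positive responses in females. Stab2, a scavenger receptor of sinusoidal endothelium, was 5.36 to 6.69 CPM in female vehicle, 14.1 to 27.5 in female LLC1, 10.5 to 22.6 in male vehicle and 22.5 to 33.8 in male LLC1 mice. It rose by 1.74 in females and 0.61 in males from a baseline that was lower in females by 1.65, a difference of 1.13 ± 0.24 (DESeq2 adjusted p = 0.00801). Of 11 endothelial markers 2 were above 0 at an unadjusted p under 0.05, Emcn among them at 0.58 ± 0.23 (0.38 without male vehicle mouse 1-3), and 1 below. The summed endothelial markers were 346 to 506 CPM in female LLC1 and 364 to 443 CPM in male LLC1 mice. Slc2a3, a glucose transporter, rose by 1.19 in females and responded by 0.32 in males, from a baseline lower in females by 1.77 (difference 0.87 ± 0.23).

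Oxidative phosphorylation genes fell in both sexes, and 0 of them had a small p for the difference. Complex I is the first enzyme of the respiratory chain, and its 34 tested genes had a median response of -0.36 in females and -0.23 in males. At an adjusted p under 0.05, 25 fell in females and 12 in males, against 5.83% and 19.4% of all genes. Yet 0 of the 34 complex I genes had an unadjusted p under 0.05 for the difference. The median difference of -0.12 ranged from -0.20 to -0.06 over the single-library omissions. Ndufs1, a core subunit, was 390.0 to 464 CPM in female vehicle, 260.2 to 355 in female LLC1, 434 to 563 in male vehicle and 263 to 429 in male LLC1 mice, with a difference of 0.05 ± 0.15. For the 40 genes of complexes II to V the median difference was -0.09, again with 0 at an unadjusted p under 0.05. The median of complexes II to V was -0.15 without female LLC1 mouse 2-5 and -0.02 without male LLC1 mouse 1-4. Ppargc1a, the coactivator PGC-1alpha that drives mitochondrial biogenesis, had a difference of 0.18 ± 0.17, and 0.03 without female LLC1 mouse 2-1. The 37 genes of the mitochondrial genome hold 0 counts in the table and are not described. Of 29 genes of the tricarboxylic acid cycle and pyruvate entry, 1 was below 0 at an unadjusted p under 0.05 (Pcx) and 1 above (Pdk1). Pcx, pyruvate carboxylase, was 150.05 to 272 CPM in female vehicle, 84.0 to 142 in female LLC1, 98.7 to 127 in male vehicle and 107 to 122 in male LLC1 mice. It fell by 0.71 in females, its male response was -0.03, and the difference was -0.68 ± 0.18 (DESeq2 adjusted p = 0.0423).

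Muscle growth signals and sarcomere genes gave mixed values. Mstn, the growth inhibitor myostatin, responded by 0.10 in females and rose by 0.69 in males (-0.59 ± 0.25). Inhbb, a subunit of activin B, had a difference of -1.54 ± 0.53, and Smad3, which carries myostatin and activin signals, of 0.78 ± 0.32. Of 30 genes of that axis 5 were below 0 and 2 above at an unadjusted p under 0.05. Without male LLC1 mouse 2-1, 2 genes of the myostatin, activin, BMP and TGF-beta list were left in all. Actc1, cardiac actin, fell in both sexes (-2.25 and -1.79; difference -0.46 ± 0.52, and -1.09 in limma-voom with sample weights), and the fast myosin Myh4 had a difference of 0.19 ± 0.18.

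Neutrophil genes rose in both sexes. S100a9, a neutrophil calprotectin subunit, was 0.304 to 0.597 CPM in female vehicle, 23.4 to 67.1 in female LLC1, 0.343 to 0.899 in male vehicle and 24.3 to 69.0 in male LLC1 mice. The LLC1 ranges of the sexes nearly coincided, and the difference was 0.00 ± 0.32, with a 6.30 response in females and 6.29 in males. Computed within the first label number, the S100a9 difference was 0.96 among mice with a 1 and -1.03 among mice with a 2. Lcn2 rose by 2.74 and 3.59 (-0.85 ± 0.51). Chil3, a chitinase-like protein of myeloid cells, rose by 3.74 and 5.84, a difference of -2.10 ± 0.85 (edgeR unadjusted p = 0.0205) that was -1.01 without female vehicle mouse 2-2. Of 15 listed neutrophil genes 11 were tested and rose in both sexes, but 9 of these were under 1 CPM in most vehicle libraries and so entered the test through LLC1 libraries. The summed neutrophil markers were 73.3 to 199 CPM in female LLC1 and 76.6 to 205 CPM in male LLC1 mice, against 4.08 to 11.1 CPM in vehicle mice. Macrophage markers had a median difference of -0.01, with 0 of 15 at an unadjusted p under 0.05. At an adjusted p under 0.05, 0 of them rose in females and 3 in males, against 5.7% and 22.2% of all genes. Of 33 interferon response genes, 2 rose in females and 8 fell in males at an adjusted p under 0.05. The shares over all genes were 5.7% and 19.4%. The median difference of the interferon list was 0.17, with 5 above 0 at an unadjusted p under 0.05. Red cell markers summed to 1250 to 20180 CPM in female LLC1 and 1218 to 4287 CPM in male LLC1 mice, and their median difference of 1.09 over 7 genes was -0.14 without female LLC1 mouse 2-4. T cell and NK cell markers and epithelial carcinoma markers had 0 tested members, and their sums were at most 19.1 and 12.1 CPM in any library. No listed marker of any cell type was at 0 in every library.

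The genes of smallest unadjusted p outside the lists were chosen after their values were seen, as were Ppp1r15a, Podn, Stab2 and Slc2a3 above. Lmo4, a LIM-domain transcription cofactor, was 11.9 to 13.5 CPM in female vehicle, 10.5 to 13.1 in female LLC1, 10.3 to 11.1 in male vehicle and 12.2 to 15.8 in male LLC1 mice. The sexes did not overlap at baseline, and males with LLC1 were above all male vehicle mice, a difference of -0.52 ± 0.10 (edgeR adjusted p = 0.121, DESeq2 adjusted p = 0.00122). Akirin2, a nuclear adaptor protein, had a difference of -0.56 ± 0.13, and Zfyve1, a lipid-binding protein, of -0.97 ± 0.23. Above 0 were Exoc7, a subunit of the exocyst, at 0.65 ± 0.14, Ets2, a transcription factor, at 0.49 ± 0.11, and Gprc5c, an orphan receptor, at 1.00 ± 0.23. Exoc7 rose in females (0.65) with a male response of -0.0042, and Gprc5c fell by 1.00 in males with a female response of 0.0052.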

How the data were processed

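Read counts per gene were deposited by the authors as 1 table of 24 libraries. Per the submitters' processing notes, CASAVA, STAR and featureCounts and the mm10 build were used. No source used here gives versions, the annotation or the strand setting. Libraries were grouped by the labels' sex and treatment. Counts were fitted with edgeR 4.0.16 (TMM scaling, quasi-likelihood test, 4 group means, Benjamini-Hochberg adjustment over 14666 genes); CPM used TMM-scaled totals. The filter was 1 CPM in 6 libraries. Alternatives were DESeq2 1.42.0, limma 3.58.1 (voom with and without sample weights), other scalings and filters, label numbers as blocks, and each library left out. Scripts were tested on simulated data.

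Gene lists and members were chosen with earlier results of these data known: 1328 listed genes, of which 1316 matched by symbol, 9 by gene ID and 3 did not. Genes to be named by the rule were the 12 called genes of smallest p per sign, up to 3 called genes per list, and a fixed set of autosomal anchors; since edgeR called none, the anchors, the 12 protein-coding genes of smallest p per sign and described list members are named, the last 2 chosen after values were seen. Genes sharing at least 10% of exon length with a neighbour of comparable count numbered 3430. Replicate libraries differed beyond sampling noise (chi-square per degree of freedom 10.1 to 211). Nothing says how litters or cages relate to the mice, so p-values measure the spread between these mice. Mice of different groups with the same full label number did not deviate together (r from -0.25 to 0.39, above 0.1 in 3 of 20 pairs). The full number was therefore not used to pair them. With the same first number the median r was 0.024, above 0.1 in 28 of 106 pairs. With different first numbers it was -0.017, above 0.1 in 19 of 110 pairs. The main fit held no term for the first number, which was a block in an alternative fit. Promoter windows are from RefSeq, matched by symbol for 9566 of 14134 gene names. Some results are not reported here.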

Additional observations from a re-analysis of the deposited data

Results flagged for a closer look

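Of 116 groups of 6 mice checked, for 24 of the genes named above and 5 gene lists, 11 held a mouse far from the other mice of its group; chance alone gives about 1 in 20. In male LLC1 mouse 1-5, Psmc4 was 299 CPM and Rpl11 was 173 CPM. In male vehicle mouse 1-3, Btg1 was 14.3 CPM, Cxcl12 was 106 CPM and Col3a1 was 1058 CPM. In male vehicle mouse 1-2, Psmc4 was 80.1 CPM and Pcx was 98.7 CPM, and in male vehicle mouse 1-1, Cdkn1a was 29.9 CPM. In female LLC1 mouse 1-4, Atp6v1h was 18.3 CPM and Hlf was 15.4 CPM, and in female vehicle mouse 1-1, Ndufs1 was 390.0 CPM.

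For 4 of the 24 genes all LLC1 mice of a sex lay on one side of their vehicle mean and all LLC1 mice of the other sex on the opposite side of theirs. Some of the 24 genes were chosen after their values were seen. The difference in log2 response was 1.55 for Per2, -1.42 for Arntl, 1.18 for Per3 and 0.68 for Cxcl12. Among mice with a first label number of 2, the female response was 0.0506 for Arntl and -0.00487 for Per3. These had the same sign as the male responses, 1.77 and -1.19. Per2 and Cxcl12 had responses of opposite sign in the sexes within each number. The direct test of each difference is given with its values above and did not pass edgeR's adjusted threshold.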

How the results depend on the processing

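The number of genes called for the difference was 0 in edgeR, limma-voom, with RLE scaling, with both other filters, over autosomal genes alone and with the full label number as a replicate block; it was 54 in DESeq2, 320 in limma-voom with sample weights, 1 with upper-quartile scaling (Cdkn1a) and 6 with the first label number as a replicate block, and 0 to 7 over the omissions of 1 library. The omissions giving calls were of male LLC1 mice 1-4 (7), 2-2 (6) and 2-5 (1) and male vehicle mice 1-3 (4) and 1-1 (3); the cause was not tested. Calls for LLC1 in females numbered 4075 with sample weights, 399 with the full label number as block, 1770 with the first, and 859 (without female LLC1 mouse 2-3) to 2151 over omissions; in males 3344 and 5850 with those blocks, and 4575 to 6499. The sex difference called 616 to 1354 genes in vehicle mice and 1488 to 3570 in LLC1 mice over omissions. The named genes kept their sign, except 3 with small differences: S100a9 turned to -0.0367 (limma-voom), -0.0262 (sample weights), -0.0021 (filterByExpr), -0.12 and -0.24 (first and full number blocks) and ranged from -0.22 to 0.12 over omissions, Ndufs1 ranged from -0.0119 to 0.12 and Mt2 from -0.52 to 0.0374. Depth limits genes near 1 CPM, which have few counts in the smallest library (26179971 counts).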
